A study of Homo sapiens with 66 samples.

Results

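The 49 genes described here are interferon-stimulated genes, the set that cells switch on when interferons reach them or when they sense viral nucleic acid. Members were chosen by symbol from the classical type I interferon response and matched to Ensembl identifiers, 49 of the 58721 gene rows that each table holds. The cells were A375, a human melanoma line with an activating BRAF mutation, grown in 10% serum, and polyadenylated RNA was sequenced from 66 libraries in 22 groups of 3. In the Mediator experiment, 14 groups crossed 7 guides with treatment: MED12sg1, MED12sg2, MED19sg1, MED19sg2, MED23sg1 and MED23sg2, each aimed at a subunit of Mediator, and the control guide GFPsg, each after 24 h in 1 µM vemurafenib, a BRAF inhibitor, or in its solvent DMSO. The SOX10 experiment held 4 groups, MED23sg1 or GFPsg cells with SOX10 overexpression (SOX10OE) or with an empty vector (EV), and the HDAC3 experiment held dKO (both MED23 and HDAC3 knocked out), MED23KO, HDAC3KO and Ctrl. No treatment is labelled for the SOX10 and HDAC3 experiments. The labels mark each experiment as a batch of its own, so every comparison was made within an experiment, and all 22 groups are the same cell line without added interferon. The labels do not say whether knockout cells were clones or pools, nor whether replicates were separate cultures, so p-values measure the spread between these samples, which may be technical. The comparisons ask what losing a Mediator subunit or HDAC3, adding SOX10 or inhibiting BRAF did to the transcripts.

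Type I and type III interferons bind cell-surface receptors whose JAK kinases phosphorylate STAT proteins. STAT2 and IRF9 are subunits of a complex, ISGF3, that binds the interferon-stimulated response element (ISRE) in the promoters of target genes. The products block viruses at entry, transcription, translation and budding, and several, among them STAT2, IRF9 and IRF7, are themselves parts of the pathway, so the response feeds forward. USP18 and SOCS1 dampen it. Mediator links transcription factors to RNA polymerase II: MED23 sits in its tail, MED19 in its core and MED12 in its detachable kinase module.

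The promoters show what these genes share beyond their names. Of the 49 members, 39 had an entry in the RefSeq promoter table (GRCh38.p14), which gives 250 bases before and 50 bases after each start. The ISRE letters searched were GAAANNGAAA, read on the other strand as TTTCNNTTTC. They lay in the window of 28 of these 39 members (71.8%), against 1195 of all 27305 genes in the table (4.38%). Per window, 33 of 52 member windows (63.5%) and 1255 of all 35116 windows (3.57%) held them. The letters TTCNNNGAA, the GAS element, which reads the same on both strands, lay in 14 of the 39 members (35.9%) and in 9.38% of all genes. The following 30-base stretches show every match to the ISRE letters in capitals, in 11 members described below whose MED12 knockout fold changes run from 9.45 (RSAD2) to 0.32 (ISG20) on the log2 scale, each 5′ to 3′ on the strand that reads GAAANNGAAA.
ISG15: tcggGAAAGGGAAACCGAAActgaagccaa
IFIT1: gaaacctaggGAAACCGAAAggggaaagtg
BST2: ctggGAAACTGAAACTGAAAacctaattaa
RSAD2: ttccacatgtGAAACTGAAAgttgaaacag
IFI44L: tcctagtgagGAAAAAGAAAgttagtggca
IFI27: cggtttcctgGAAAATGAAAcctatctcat
IFI6: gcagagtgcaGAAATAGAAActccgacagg
ISG20: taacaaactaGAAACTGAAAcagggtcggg
LGALS3BP: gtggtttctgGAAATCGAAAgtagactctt
PARP9 and DTX3L: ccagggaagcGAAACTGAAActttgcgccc

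In GRCh38.p14 the ISG15 stretch is chr1:1013380-1013409 (plus strand), that of IFIT1 is chr10:89392510-89392539 (minus strand, the gene being on the plus strand) and that of BST2 is chr19:17405735-17405764 (minus strand). RSAD2's is chr2:6877622-6877651 (minus strand, the gene being on the plus strand), IFI44L's chr1:78620365-78620394 (plus) and IFI27's chr14:94110631-94110660 (plus). IFI6's is chr1:27672266-27672295 (minus), ISG20's chr15:88638937-88638966 (plus) and LGALS3BP's chr17:78979962-78979991 (minus). PARP9 and DTX3L, which encode a partner pair of an ADP-ribosyltransferase and a ubiquitin ligase, are divergently transcribed and share 1 stretch, chr3:122564322-122564351 (plus strand shown). The ISG15 and BST2 stretches each hold 2 overlapping matches. Of the match nearest each start, GAAACTGAAA was the commonest, in 12 members, followed by GAAACCGAAA in 6.

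The 250 bases before the start are printed for 2 members with more than 1 match, with every matching letter in capitals. ISG15 (chr1:1013247-1013496, plus strand) held 2 overlapping matches and IFI6 (chr1:27672193-27672442, minus strand) held 3.
ISG15: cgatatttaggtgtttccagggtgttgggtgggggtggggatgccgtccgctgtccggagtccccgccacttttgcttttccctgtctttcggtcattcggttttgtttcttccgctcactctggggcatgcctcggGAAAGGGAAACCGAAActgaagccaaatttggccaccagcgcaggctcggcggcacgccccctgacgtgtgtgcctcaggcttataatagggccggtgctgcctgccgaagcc
IFI6: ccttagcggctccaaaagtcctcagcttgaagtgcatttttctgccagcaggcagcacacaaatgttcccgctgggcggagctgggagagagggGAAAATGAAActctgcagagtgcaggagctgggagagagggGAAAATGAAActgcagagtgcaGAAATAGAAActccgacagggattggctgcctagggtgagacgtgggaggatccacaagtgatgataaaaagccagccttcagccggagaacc

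A match describes letters in a window and nothing more. Members with and without the ISRE letters did not stand apart in the MED12 comparison described next. All 28 with the letters were higher in MED12 knockout cells, with a median log2 fold change of 2.94, and all 11 without them in this window were higher too, with a median of 3.10.

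Library depth was 65.9 to 212 M counted reads in the Mediator experiment, 24.9 to 30.8 M in the SOX10 experiment and 58.8 to 106 M in the HDAC3 experiment, with 27453, 18009 and 21139 genes tested. RNA of the targeted gene was lower in every knockout group: MED12 stood at 28.7% and 20.5% of the control mean under guides 1 and 2 in DMSO, MED19 at 45.8% to 54.6%, MED23 at 42.9% to 53.2% over the 3 experiments, and HDAC3 at 51.0% in HDAC3KO and 60.2% in dKO. SOX10 overexpression raised total SOX10 counts to 174% of the empty-vector level in MED23sg1 cells and 114% in GFPsg cells. The melanocytic markers MITF and SOX10 were present in every library, at 39.8 to 156 CPM and 66.2 to 1076 CPM (counts for every 1e6 of the library) in the Mediator experiment, whereas PMEL, MLANA and TYR were at most 8.02, 2.22 and 0.401 CPM in any. DCT and S100B ran from 0.00990 to 863 CPM and from 4.33 to 97.4 CPM in the Mediator experiment. The summed level of these 7 melanocytic markers moved with the groups: 164 to 212 CPM in MED12 knockout DMSO libraries, 2134 to 2191 CPM in control vemurafenib libraries and 853 to 930 CPM in control DMSO libraries, and 494 to 552 CPM in dKO, 984 to 1010 CPM in HDAC3KO, 305 to 320 CPM in MED23KO and 564 to 576 CPM in Ctrl libraries. PMEL, MLANA and TYR added little to any sum, so it does not describe the whole list. Summed leukocyte marker levels were 3.35 to 3.97 CPM in MED12 knockout DMSO libraries, 3.55 to 4.57 CPM in control vemurafenib libraries and 0.698 to 0.801 CPM in control DMSO libraries, with CD14 and CSF1R detected in every library, PTPRC and ITGAM at 0 in 1 and 2, and CD3E, LILRA4 and CLEC4C at 0 in 26, 34 and 37 of 42 libraries. PTPRC and CSF1R reached 2.75 and 2.65 CPM. Their part in the results was not tested. Replicate 2 of the MED12 knockout groups stood apart for the members, as described with those results.

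Loss of MED12 was accompanied by higher transcript levels of nearly the whole set. In DMSO, 47 of 49 members were higher in MED12 knockout cells than in GFPsg control cells and 1 was lower (edgeR's quasi-likelihood test, Benjamini-Hochberg adjusted p under 0.05, 6 knockout libraries over both guides against 3). Of all genes tested, 27.9% were called higher and 27.0% lower in that comparison. The median log2 fold change of the members was 2.97, against 0.00 over all genes, and 44 of the members called higher were at least 2-fold higher. For 47 members every knockout library lay above every control library. The shares of all genes that changed at least 2-fold or did not overlap were not counted, here or in the other comparisons. In bulk RNA, more cells expressing a gene and more RNA per cell cannot be told apart.

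**Figure D1:**
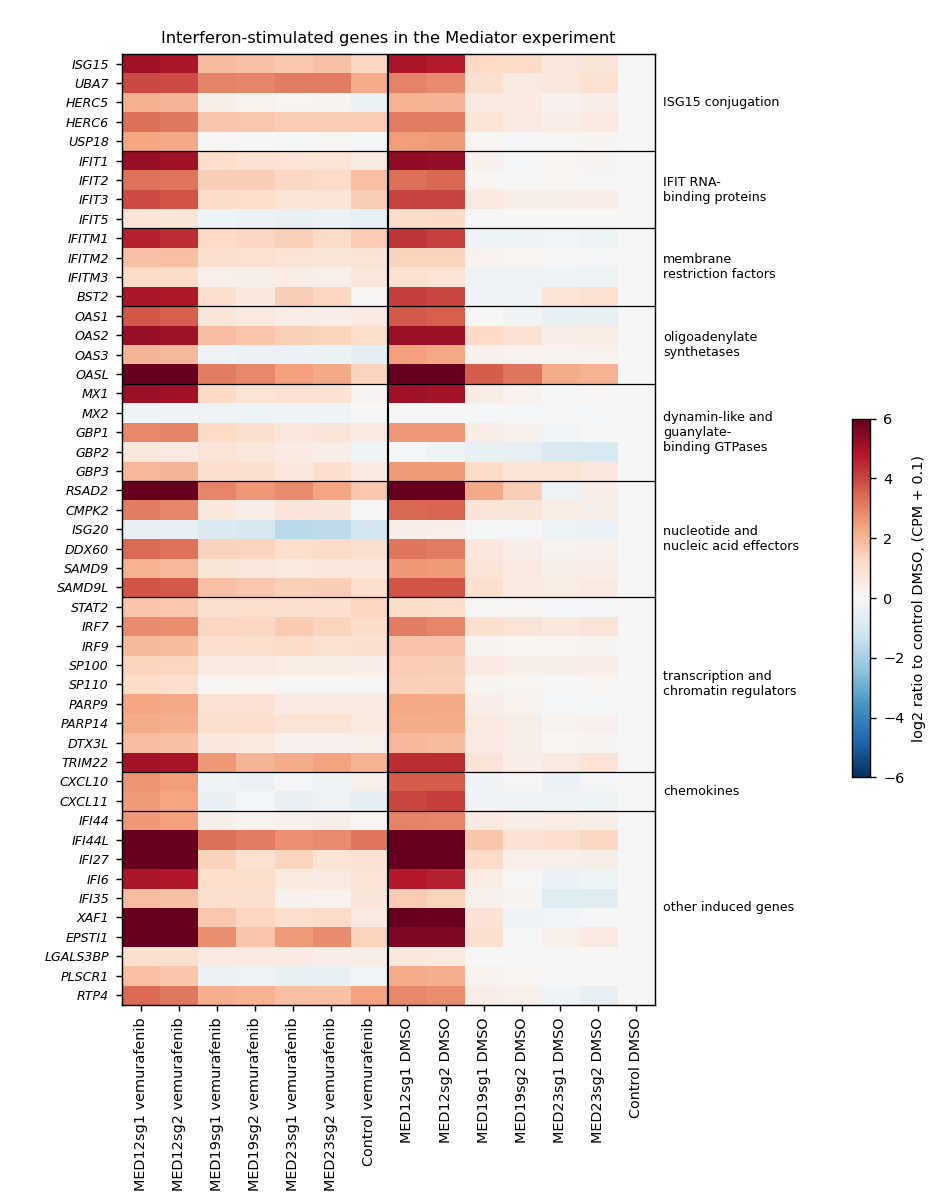
Mean level of each of the 49 members in the 14 groups of the Mediator experiment, as the log2 ratio of CPM + 0.1 to the control DMSO mean, rows ordered by role, vemurafenib groups on the left and DMSO groups on the right, with colours capped at 6 in either direction. Both guides of MED12 knockout stand out in most rows under either treatment. In DMSO, MX2 and GBP2 did not rise, and ISG20 and LGALS3BP rose little.

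All 5 members of the ISG15 conjugation group rose in MED12 knockout cells. ISG15, a ubiquitin-like protein that enzymes attach to other proteins, measured 65.2, 119 and 81.4 CPM under MED12sg1 and 57.1, 111 and 69.3 CPM under MED12sg2, against 2.86, 3.45 and 2.40 CPM in control cells. The groups did not overlap, and the middle library of each knockout group was the highest. The log2 fold change was 4.85 ± 0.20 (SE, adjusted p = 2.5e-26 by edgeR's quasi-likelihood test). UBA7, its activating enzyme, rose by 2.95 ± 0.09 (log2), at group means of 25.1 CPM in MED12 knockout and 3.24 CPM in control cells. HERC6 (3.10 ± 0.11) and HERC5 (2.07 ± 0.11), from the family of ISG15 ligases, and USP18 (2.54 ± 0.13), which removes ISG15 and blocks the receptor, rose as well. USP18 has near-identical copies elsewhere in the genome and its counts are uncertain for that reason.

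The 4 IFIT genes, whose products bind foreign RNA ends, form a cluster on chromosome 10 and all rose. IFIT1 was at 281, 494 and 331 CPM under MED12sg1 and 239, 508 and 323 CPM under MED12sg2, against 9.04, 9.30 and 9.35 CPM in control cells. The lowest knockout library was far above the highest control library. The log2 fold change was 5.29 ± 0.20 for IFIT1, 4.08 ± 0.16 for IFIT3, 3.39 ± 0.16 for IFIT2 and 1.12 ± 0.07 for IFIT5.

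All 4 membrane restriction factors rose, but unevenly. IFITM1, which blocks virus fusion at the cell surface, was at 31.0, 58.3 and 38.8 CPM under MED12sg1 and 27.0, 51.5 and 33.1 CPM under MED12sg2, against 2.00, 1.96 and 2.33 CPM in control cells, a log2 fold change of 4.24 ± 0.21. Its endosomal relatives moved less: IFITM2 by 1.35 ± 0.05 and IFITM3 by 0.87 ± 0.06, with IFITM3 at a mean of 348 CPM in MED12 knockout and 190 CPM in control cells. IFITM1 and IFITM2 share 351 exon bases on the same strand and the 3 genes are similar in sequence, so reads may have been split or dropped between them. BST2 (tetherin), which holds budding virions on the cell surface, measured 32.1, 59.7 and 39.2 CPM under MED12sg1 and 29.7, 53.0 and 36.2 CPM under MED12sg2, against 2.10, 2.25 and 2.66 CPM in control cells (log2 fold change 4.14 ± 0.20).

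The oligoadenylate synthetase genes had the highest median fold change of the enzyme groups, 4.40 on the log2 scale, with 4 of 4 higher. These enzymes make the second messenger that activates RNase L. OASL, a catalytically inactive relative, showed 53.5, 88.1 and 59.5 CPM under MED12sg1 and 50.9, 95.2 and 64.8 CPM under MED12sg2, against 0.518, 0.430 and 0.535 CPM in control cells. Every knockout library was far above every control library, with a log2 fold change of 7.12 ± 0.24. OAS2 rose by 5.17 ± 0.17, OAS1 by 3.63 ± 0.16 and OAS3 by 2.38 ± 0.12.

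Dynamin-like antiviral GTPases were the group with exceptions: 3 of 5 rose and 1 fell. MX1, which traps viral nucleocapsids in the cytoplasm, was at 191, 328 and 226 CPM under MED12sg1 and 166, 324 and 209 CPM under MED12sg2, against 7.43, 7.07 and 7.17 CPM in control cells (log2 fold change 5.06 ± 0.17). Its neighbour MX2, a restriction factor for HIV at the nuclear pore, was at 93.1, 104 and 97.6 CPM and 94.5, 105 and 96.4 CPM under the guides, against 97.4, 97.7 and 94.7 CPM in control cells. The MX2 groups overlapped, with a log2 fold change of 0.03 ± 0.03 (adjusted p = 0.52 by edgeR's quasi-likelihood test). GBP1 and GBP3, guanylate-binding proteins that attack pathogen membranes, rose by 2.60 ± 0.09 and 2.66 ± 0.16. GBP2 was called lower at -0.19 ± 0.06 (adjusted p = 0.0078, same test), with 24.4, 26.6 and 23.0 CPM under MED12sg1 and 19.2, 24.7 and 20.8 CPM under MED12sg2, against 27.1, 26.0 and 25.9 CPM in control cells. A MED12sg1 library of GBP2 lay within the control range, and with guide 1 alone the call was lost (adjusted p = 0.29, same test). GBP2 shares 621 same-strand exon bases with GBP7.

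**Figure D2:**
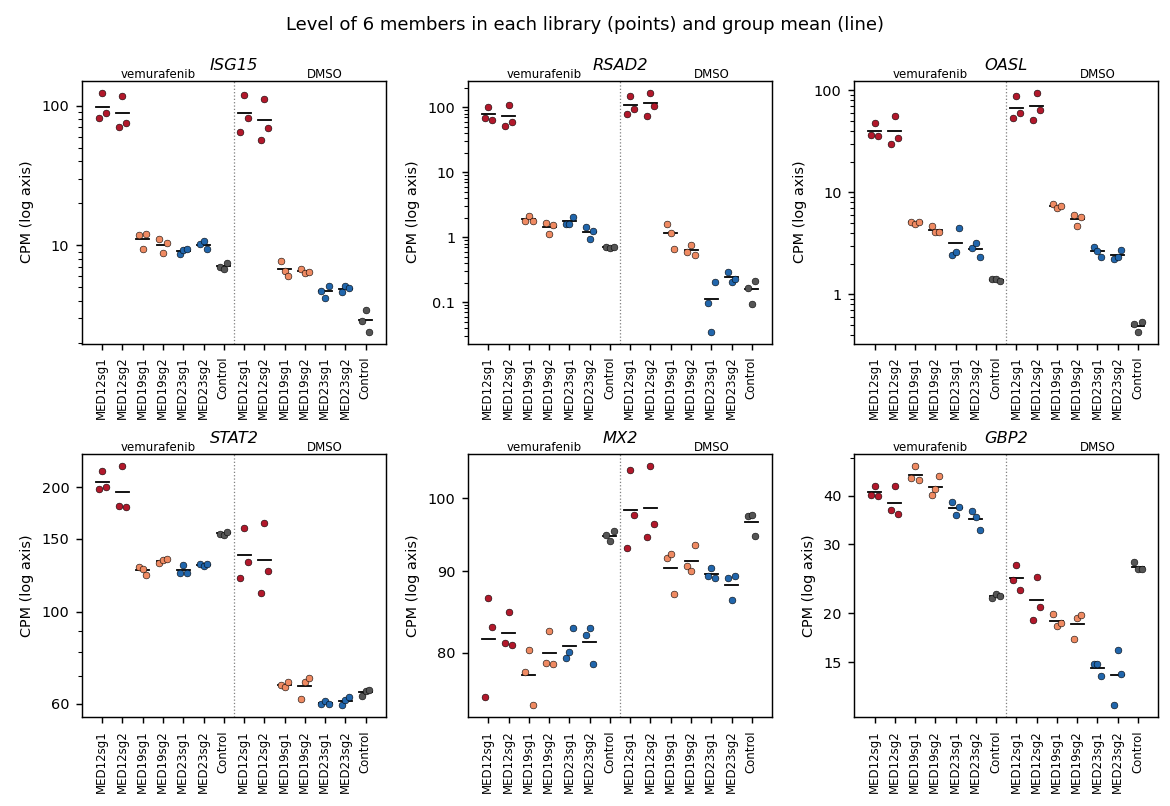
CPM (log axis) of ISG15, RSAD2, OASL, STAT2, MX2 and GBP2 in each of the 42 libraries of the Mediator experiment, vemurafenib groups on the left and DMSO groups on the right, 1 point per library and a line at the group mean. ISG15, RSAD2 and OASL are separated from the control by both MED12 guides, whereas MX2 overlaps between MED12 knockout and control libraries in DMSO.

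All 6 nucleotide and translation effectors rose, with the widest range of any group. RSAD2 (viperin), which makes a chain-terminating nucleotide, measured 80.0, 150 and 93.2 CPM under MED12sg1 and 72.3, 169 and 103 CPM under MED12sg2, against 0.166, 0.0935 and 0.212 CPM in control cells. Its log2 fold change, 9.45 ± 0.36, was the largest among members with enough counts, on 70 counts in the control libraries together. CMPK2, a kinase that supplies its substrate and lies beside it, rose by 3.50 ± 0.16, the antiviral helicase DDX60 by 3.19 ± 0.12, and the translation inhibitors SAMD9L and SAMD9 by 3.76 ± 0.12 and 2.57 ± 0.08. ISG20, an RNA exonuclease, changed least among the risen members, by 0.32 ± 0.07, with 53.1 CPM in MED12 knockout and 42.5 CPM in control cells on average.

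The 9 transcription and chromatin members all rose, with a lower median of 1.92. STAT2, a subunit of ISGF3, measured 120, 159 and 132 CPM under MED12sg1 and 111, 164 and 125 CPM under MED12sg2, against 62.6, 64.3 and 64.7 CPM in control cells (log2 fold change 1.08 ± 0.07). The groups did not overlap. Its partner IRF9 rose by 1.84 ± 0.17, at means of 2.87 CPM in MED12 knockout and 0.807 CPM in control cells, although 1838 of its exon bases are shared with a second annotated gene on the same strand. IRF7, the factor that amplifies interferon production, rose by 3.05 ± 0.15. The restriction factor TRIM22 rose by 4.54 ± 0.16, PARP9 by 2.31 ± 0.09, PARP14 by 2.22 ± 0.08, DTX3L by 1.92 ± 0.08, and the nuclear body proteins SP100 and SP110 by 1.50 ± 0.05 and 1.44 ± 0.08.

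The chemokines CXCL10 and CXCL11, which draw T cells through CXCR3, were barely present in control cells. CXCL10 had 124, 373 and 209 counts under MED12sg1 and 150, 215 and 101 counts under MED12sg2, against 5, 2 and 3 counts in control libraries. With so few control counts only levels are given: CXCL10 averaged 1.45 CPM in MED12 knockout and 0.026 CPM in control cells, CXCL11 2.48 and 0.0506 CPM, and EPSTI1, an interferon-induced gene first found in breast tumour stroma, 7.11 and 0.0497 CPM. All 3 were called higher in MED12 knockout cells. CXCL10 and CXCL11 passed the low-count filter only through the MED12 knockout groups, where they were high. Their calls therefore add no support, although they count in every total of members higher in MED12 knockout cells.

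The remaining members rose in 10 of 10 cases. IFI27, which encodes a mitochondrial protein, was 7.97 ± 0.39 higher on the log2 scale, at 25.7 CPM in MED12 knockout and 0.0954 CPM in control cells, and XAF1, a pro-apoptotic gene, was 6.92 ± 0.30 higher, at 13.0 and 0.106 CPM. XAF1 shares 2535 exon bases with an opposite-strand gene. IFI6, an endoplasmic reticulum protein active against flaviviruses, rose by 4.67 ± 0.17 to a mean of 564 CPM in MED12 knockout, against 22.1 CPM in control cells. IFI44L was at 86.8, 161 and 107 CPM under MED12sg1 and 79.5, 155 and 109 CPM under MED12sg2, against 0.635, 0.461 and 0.402 CPM in control cells, a log2 fold change of 7.92 ± 0.25 with no overlap. LGALS3BP, a secreted glycoprotein already at 542 CPM in control cells, rose by 0.61 ± 0.04.

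Both MED12 guides gave nearly equal member levels. The ratio of MED12sg1 to MED12sg2 means in DMSO had a median of 1.03 over the members, from 0.906 for CXCL11 to 1.15 for IFITM1. No member was called different between the MED12 guides by edgeR's quasi-likelihood test, 1 had an unadjusted p under 0.05, and DESeq2's Wald test called 0. Of all genes, 0.601% were called higher and 0.0219% lower under guide 1. The MED19 guides were less alike. Their DMSO ratio of guide 1 to guide 2 had a median of 1.12 over 45 members, from 0.972 for ISG20 to 2.36 for IFI27. Between them 3 members were called, all higher under guide 1 (SAMD9L by 0.46, UBA7 by 0.41 and SAMD9 by 0.26, against 4.74% of all genes higher and 5.43% lower). Of the members, 12 had an unadjusted p under 0.05 and DESeq2 called 5. For 23 members every guide 1 library lay above every guide 2 library. Fitting only the groups compared, or using no low-count filter, called more members, as the closing section gives. The MED19 results below pool these guides. Between the MED23 guides none was called (0 with an unadjusted p under 0.05 and 0 by DESeq2, against 0.0328% and 0% of all genes).

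Within the MED12 knockout groups the members moved together from library to library. Replicate 2 held the highest value of all 49 members in both MED12 DMSO groups and of 48 members in both vemurafenib groups. The share of all genes highest in replicate 2 was not counted, so a general difference of these libraries cannot be told apart. The median ratio of replicate 2 to replicate 1 was 1.57 and 1.61 under guides 1 and 2 in DMSO, and 1.26 and 1.42 in vemurafenib. The median coefficient of variation over members was 23.9% and 26.0% in MED12 DMSO groups and 13.9% and 20.5% in MED12 vemurafenib groups, against at most 6.2% in the other groups of the Mediator experiment. Using MED12 knockout libraries 1 and 3 only, an alternative chosen after seeing the data, left 47 members higher and 1 lower than control in DMSO, with a median of 2.79.

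**Figure D3:**
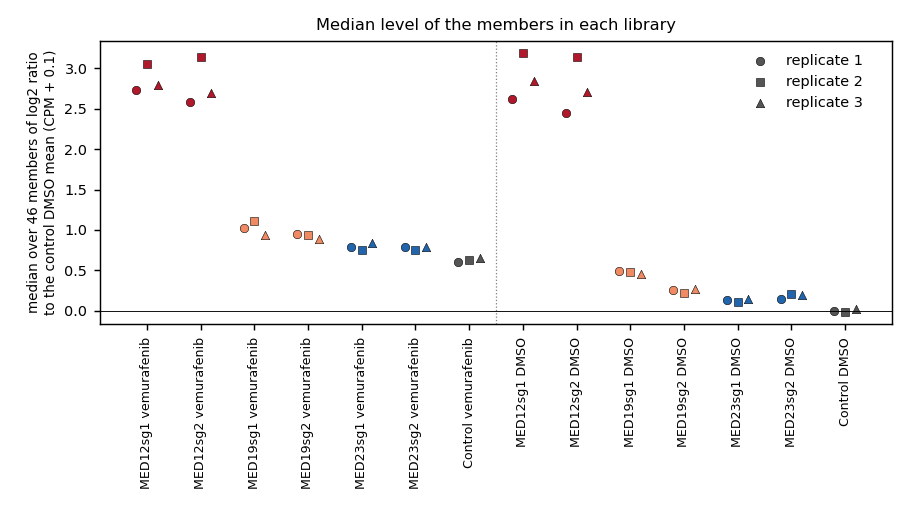
Median over 46 members of the log2 ratio to the control DMSO mean (CPM + 0.1) in each library of the Mediator experiment, vemurafenib groups left of DMSO groups, with 1 symbol per replicate number. MED12 DMSO libraries lie at 2.62, 3.19 and 2.84 for guide 1 and 2.45, 3.14 and 2.71 for guide 2, replicate 2 being the highest of each.

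The pathway that drives these genes was followed through 38 listed ligands, receptors, kinases, factors, feedback genes and sensors, of which 32 passed the low-count filter. In MED12 knockout cells 26 were higher and 2 lower (all genes 27.9% and 27.0%), with a median log2 fold change of 0.81. Of 12 sensors 11 were higher. RIGI, the receptor for uncapped viral RNA, rose by 4.91 ± 0.17 (198 CPM in MED12 knockout and 6.58 CPM in control cells), and IFIH1 (MDA5), which senses long double-stranded RNA, by 2.94. All 6 transcription factors were higher. SOCS1, a JAK inhibitor, rose by 2.30. Of 6 receptor subunits 2 rose, among them the interferon lambda receptor IFNLR1 by 1.57 (13.7 and 4.59 CPM), and 2 fell, IFNGR2 by 0.35 and IFNAR1 by 0.08.

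Interferon transcripts themselves were near the limit of counting. IFNB1 had 4, 11 and 8 counts under MED12sg1 and 5, 12 and 0 under MED12sg2, against 0, 0 and 1 in control libraries. IFNL1 had 15, 11 and 8 counts under MED12sg1 and 10, 13 and 13 under MED12sg2, against 0, 0 and 0. IFNL2 and IFNL3 were detected in 5 and 6 of the 6 MED12 knockout DMSO libraries, in no control DMSO library, and at no more than 20 counts. IFNE, the epithelial interferon, was the ligand with the most counts and rose by 1.82 (0.935 and 0.256 CPM).

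Losing MED19 or MED23 moved far fewer members, and by less. In MED19 knockout DMSO cells 24 of 49 members were higher and 3 lower than control (all genes 20.4% and 20.2%), with a median of 0.33. In MED23 knockout DMSO cells 18 were higher and 6 lower (all genes 18.4% and 18.5%), with a median of 0.14, so the MED23 counts lie closer to the background than those of MED19. Both comparisons, and that of MED12, share the 3 control libraries. At 2-fold or more, 6 members differed in MED19 and 2 in MED23 knockout cells. IFI44L rose by 1.49 in MED19 and 1.34 in MED23 knockout cells (1.41 and 1.21 CPM, against 0.499 CPM in control cells), the MED19 call being lost with guide 2 alone (adjusted p = 0.082, edgeR's quasi-likelihood test). Tested directly in DMSO, all 49 members were higher in MED12 than in MED19 knockout cells (all genes 23.8% higher and 22.9% lower, median 2.50) and all 49 higher in MED12 than in MED23 knockout cells (all genes 25.9% higher and 24.9% lower, median 2.66). RSAD2 (7.05 over MED19 and 9.25 over MED23 knockout) and IFI27 (6.94 and 7.48) had the largest of these differences among members with enough counts.

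OASL was the member with the largest fold change in both. It measured 7.72, 7.10 and 7.30 CPM under MED19sg1 and 5.99, 4.65 and 5.68 CPM under MED19sg2, 2.93, 2.67 and 2.32 CPM under MED23sg1 and 2.24, 2.31 and 2.70 CPM under MED23sg2, and 0.518, 0.430 and 0.535 CPM in control cells. The 3 genotypes formed separate steps with no overlap. The MED23 log2 fold change was 2.34 ± 0.29 over control, and MED19 knockout lay 1.34 above MED23 knockout.

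Of the ISG15 conjugation group 4 of 5 rose in each knockout: ISG15 by 1.19 ± 0.21 in MED19 and 0.73 ± 0.21 in MED23 knockout cells, and UBA7 by 0.77 ± 0.10 and 0.82 ± 0.10. USP18 stood at 9.56 CPM in MED19 and 10.1 CPM in MED23 knockout cells, against 9.29 CPM in control cells, and did not pass in either. Several members with large MED12 fold changes did not pass: IFIT1 averaged 9.96 CPM in MED19 and 10.1 CPM in MED23 knockout cells, against 9.23 CPM in control cells, and MX1 9.14 and 7.62 CPM, against 7.23 CPM. RSAD2 rose by 2.40 ± 0.65 in MED19 knockout cells (0.888 and 0.157 CPM) but stood at 0.177 CPM in MED23 knockout cells, and the difference between these knockouts, 2.20, passed. With guide 2 alone neither RSAD2 call held (adjusted p = 0.051 against control and 0.20 between the knockouts, edgeR's quasi-likelihood test).

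BST2 separated the 2 subunits in the other direction. It was at 1.72, 2.31 and 1.69 CPM under MED19sg1 and 1.45, 2.41 and 1.80 CPM under MED19sg2, against 3.60, 4.71 and 4.12 CPM under MED23sg1 and 4.12, 5.34 and 4.22 CPM under MED23sg2. The MED19 and MED23 libraries did not overlap, and BST2 was the 1 member lower in MED19 than in MED23 knockout cells (log2 difference -1.19), while 19 were higher (all genes 16.1% lower and 17.5% higher). Against control, BST2 rose by 0.87 ± 0.21 in MED23 knockout cells.

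Few members fell. GBP2, which contributes to cell-autonomous defence, fell by 0.47 in MED19 and by 0.90 in MED23 knockout cells, with 19.0 CPM in MED19 and 14.2 CPM in MED23 knockout cells, against 26.3 CPM in control cells. IFITM3 fell by 0.29 in each and MX2 by 0.09 and 0.12, the MX2 call in MED19 knockout cells being lost without any of 5 single libraries. The MED23 calls also took in IFI35 (a fall of 0.74, 14.0 and 23.2 CPM), OAS1 (0.44) and ISG20 (0.35). The direct difference for IFI35, 0.97 higher in MED19 than in MED23 knockout cells, passed. The OAS1 call in MED23 knockout cells was lost with guide 1 alone (adjusted p = 0.087, edgeR's quasi-likelihood test) and without any of 3 single libraries (0.053 to 0.096).

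Vemurafenib raised many members in control cells. After 24 h, 32 of 49 were higher and 6 lower than in DMSO, with a median log2 fold change of 0.70, against 35.8% higher, 30.3% lower and a median of 0.11 over all genes. IFI44L rose most among members with enough counts: 4.84, 5.82 and 5.53 CPM in vemurafenib, against 0.635, 0.461 and 0.402 CPM in DMSO, a log2 fold change of 3.49 ± 0.33. RTP4, a chaperone of receptors that also restricts flaviviruses, rose by 2.49 ± 0.21 (4.82 and 0.832 CPM). EPSTI1 was called higher too, at 0.272 and 0.0497 CPM on 20 counts in DMSO. UBA7 was at 15.6, 16.2 and 15.5 CPM in vemurafenib, against 3.24, 3.15 and 3.34 CPM in DMSO, a log2 fold change of 2.28 ± 0.10 with no overlap.

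By role, 8 of 9 transcription and chromatin members rose with vemurafenib in control cells. STAT2 measured 154, 153 and 156 CPM in vemurafenib, against 62.6, 64.3 and 64.7 CPM in DMSO, a log2 fold change of 1.27 ± 0.08, and TRIM22, IRF7 and IRF9 rose by 2.15, 1.11 and 1.04. Of the IFIT genes IFIT2, IFIT3 and IFIT1 rose by 1.80, 1.51 and 0.54, while IFIT5 fell by 0.49. The IFIT1 call was lost without replicate 1 or 3 of the vemurafenib libraries (adjusted p = 0.051 and 0.052, edgeR's quasi-likelihood test). Of the membrane factors IFITM1, IFITM2 and IFITM3 rose by 1.56, 0.79 and 0.67, and BST2 stood at 2.46 CPM in vemurafenib and 2.34 CPM in DMSO.

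The 6 members lower with vemurafenib in control cells were ISG20, OAS3, IFIT5, HERC5, GBP2 and CXCL11. ISG20 was at 20.7, 20.4 and 19.0 CPM in vemurafenib, against 41.8, 42.1 and 43.7 CPM in DMSO, and fell by 1.09 ± 0.08. OAS3 fell by 0.52 ± 0.12 and GBP2 by 0.25 ± 0.07. The CXCL11 call rested on few counts and was lost without any of 4 single libraries (adjusted p = 0.050 to 0.14, edgeR's quasi-likelihood test). MX1 (8.02 and 7.23 CPM) and USP18 (8.75 and 9.29 CPM), members with log2 fold changes of 5.06 and 2.54 in MED12 knockout cells, did not pass. Of the 32 pathway genes tested, 18 rose and 7 fell with vemurafenib (all genes 35.8% and 30.3%). Among them IRF5 (1.70), DHX58 (1.55), IFIH1 (1.22) and RIGI (1.00) went upward, and SOCS3 (a fall of 1.64) and IFNGR2 (1.36) downward. The mitochondrial share of counts was 2.54% in control vemurafenib libraries and 1.19% in control DMSO libraries, and its part in these results was not tested.

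In MED12 knockout cells vemurafenib did not raise the set further as a whole. There 14 members were higher and 17 lower with vemurafenib than with DMSO, against 32.4% and 30.8% of all genes, and the median was -0.00. With MED12 libraries 1 and 3 only, 19 were higher and 17 lower. All 4 membrane factors rose, BST2 by 0.75 ± 0.12 (70.1 and 41.7 CPM), and UBA7 (1.02 ± 0.06), STAT2 (0.56 ± 0.05) and GBP2 (0.78 ± 0.05) rose as well. OASL fell by 0.77 ± 0.11 (40.2 and 68.7 CPM), RSAD2 by 0.56 ± 0.14 (75.4 and 111 CPM), ISG20 by 0.81 ± 0.05, CXCL10 by 1.13 (0.661 and 1.45 CPM) and CXCL11 by 1.74 (0.740 and 2.48 CPM). By DESeq2's Wald test the falls of RSAD2 and CXCL10 did not pass (adjusted p = 0.052 and 0.35). The IFITM1 rise of 0.34 was lost with either guide alone (adjusted p = 0.087 and 0.090, edgeR's quasi-likelihood test).

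The difference between these vemurafenib effects was tested as an interaction. It was negative for 35 members and positive for 4 (all genes 24.2% and 24.9%), with a median of -0.60. For IFI44L the interaction was -3.53 ± 0.35: its MED12 knockout libraries measured 106, 148 and 108 CPM under guide 1 and 84.4, 146 and 88.5 CPM under guide 2 in vemurafenib, against 86.8, 161 and 107 CPM and 79.5, 155 and 109 CPM in DMSO. Those ranges overlap, unlike the control libraries given above. RSAD2 (-2.69 ± 0.75), OASL (-2.27), RTP4 (-2.02), IFIT2 (-1.94), IFIT3 (-1.73) and STAT2 (-0.71) had interactions of the same sign.

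GBP2 had the opposite one. It was at 40.2, 42.4 and 40.0 CPM under MED12sg1 and 36.8, 42.4 and 36.0 CPM under MED12sg2 in vemurafenib, whereas control cells in vemurafenib had 21.9, 22.4 and 22.2 CPM. The interaction was 1.03, followed by BST2 (0.69), HERC5 (0.43) and ISG20 (0.27). The BST2 interaction was lost without any of 9 single libraries (adjusted p = 0.052 to 0.14, edgeR's quasi-likelihood test), that of HERC5 when only the groups compared were fitted (0.064) and that of ISG20 without GFPsg vemurafenib replicate 3 (0.057). In MED19 knockout cells GBP2 was at 44.4, 47.6 and 43.9 CPM under guide 1 and 40.2, 41.5 and 44.8 CPM under guide 2 in vemurafenib, against 20.0, 18.6 and 18.9 CPM and 17.2, 19.5 and 19.8 CPM in DMSO. In MED23 knockout cells it was at 38.6, 35.7 and 37.4 CPM and 36.6, 35.2 and 32.6 CPM in vemurafenib, against 14.9, 14.9 and 13.8 CPM and 11.6, 16.1 and 14.0 CPM in DMSO. GBP2 thus rose with vemurafenib in all 3 knockouts and fell slightly in control cells, and the interaction was 1.45 for MED19 and 1.60 for MED23.

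**Figure D4:**
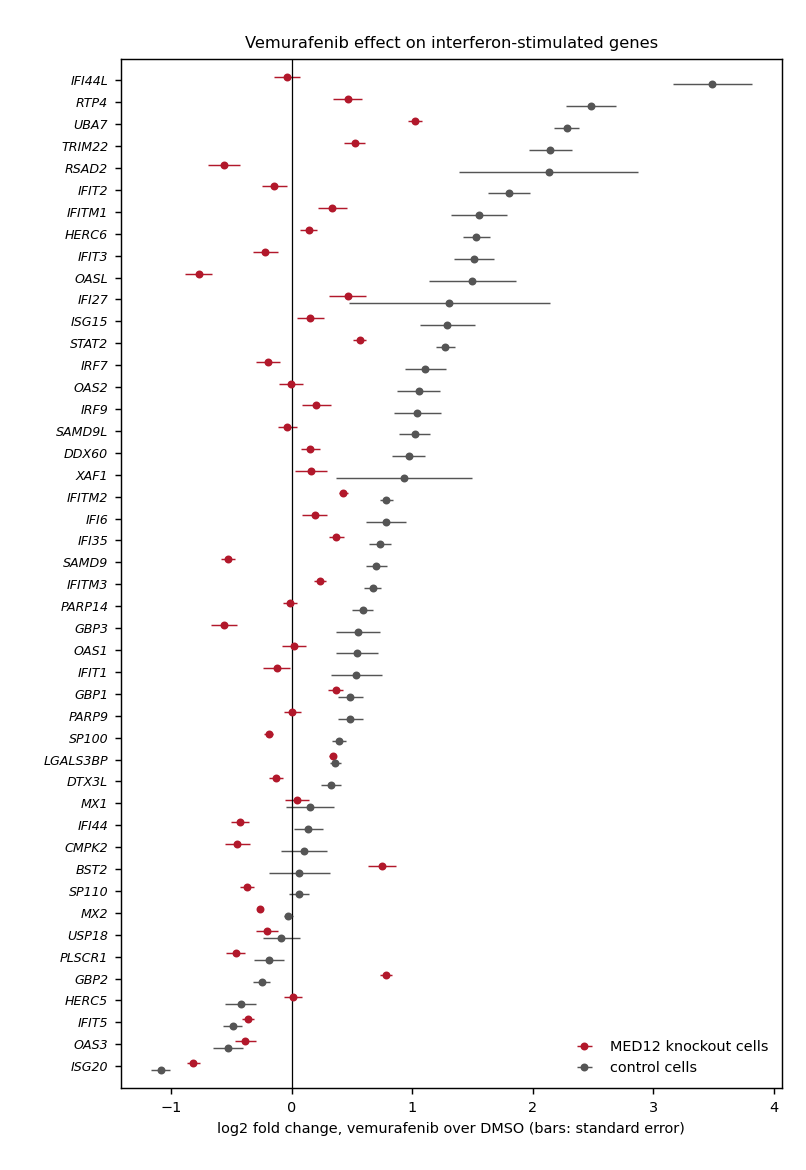
Log2 fold change of vemurafenib over DMSO (± SE) for 46 members in MED12 knockout cells (red) and in control cells (grey), without CXCL10, CXCL11 and EPSTI1, whose control counts are too few. Most control points lie to the right of the knockout points, IFI44L farthest at 3.49 against -0.04, and GBP2 is on the other side at 0.78 in MED12 knockout and -0.25 in control cells.

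In MED19 and MED23 knockout cells vemurafenib raised many members too. With vemurafenib, 33 members were higher and 7 lower in MED19 knockout cells (all genes 37.7% and 32.6%, median 0.69), and 34 higher and 6 lower in MED23 knockout cells (all genes 37.4% and 32.1%, median 0.78). UBA7 rose by 2.23 and 2.30 and ISG20 fell by 0.84 and 1.25 in MED19 and MED23 knockout cells, followed downward by OAS3 (0.50 and 0.54) and PLSCR1 (0.50 and 0.47). IFI44L rose by 1.99 in MED19 knockout cells, and RSAD2 (2.99), EPSTI1 (2.90) and RTP4 (2.34) rose most in MED23 knockout cells. The interaction was positive for 3 and negative for 9 members in MED19 knockout cells (all genes 17.4% and 15.2%). It was positive for 3 and negative for 7 in MED23 knockout cells (all genes 18.5% and 16.2%). These shares were near or below the background in this fit only. Fitting only the groups compared called more members for each, as the closing section gives without a share over all genes. OASL was among the negative ones in both, at -1.92 for MED19, where it fell by 0.43 with vemurafenib (adjusted p = 0.22 with guide 2 alone, edgeR's quasi-likelihood test), and -1.25 for MED23.

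Within vemurafenib, 48 members were higher in MED12 knockout than in control cells and MX2 was lower by 0.21 (all genes 32.5% and 29.6%, median 2.37). IFI27 (7.13), RSAD2 (6.76), XAF1 (6.15), OASL (4.85) and BST2 (4.82) had the largest differences among members with enough counts, and STAT2 (0.37) and IFITM3 (0.44) some of the smallest. RSAD2 was at 69.3, 100 and 64.2 CPM under MED12sg1 and 52.3, 108 and 58.5 CPM under MED12sg2, against 0.707, 0.685 and 0.700 CPM in control cells, all in vemurafenib. MED19 knockout gave 25 higher and 5 lower (all genes 23.1% and 20.7%), OASL higher by 1.75, RSAD2 by 1.27 and XAF1 by 1.16, and IFIT3 lower by 0.42, IFITM3 by 0.35 and MX2 by 0.27. With guide 2 alone the RSAD2 and XAF1 calls were lost (adjusted p = 0.069 and 0.12, edgeR's quasi-likelihood test). MED23 knockout gave 13 higher and 8 lower (all genes 24.6% and 22.7%), shares near or below the background in this fit. Fitting only the groups compared called more members, as the closing section gives without a share over all genes. In MED23 knockout cells EPSTI1 was higher by 1.65, BST2 by 1.35 and OASL by 1.09, and IFIT3 lower by 0.74, RTP4 by 0.64 and IFIT2 by 0.58.

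MED23 was knocked out in all 3 experiments, which share no libraries, so its effect could be read in each. In the SOX10 experiment, with the empty vector, 25 of 43 tested members were higher and 7 lower in MED23sg1 than in GFPsg cells (all genes 21.2% and 22.3%, median 0.30). In the HDAC3 experiment, 20 of 45 were higher and 6 lower in MED23KO than in Ctrl cells (all genes 12.3% and 12.0%, median 0.18). Leaving out any single library compared left 25 to 28 calls in the SOX10 experiment, against 32 with all libraries. In the HDAC3 experiment it left 19 to 23, against 26. DESeq2's Wald test called 26 and 27 members in these experiments. Of the 43 members tested in all 3, 16 were higher and 5 lower every time, and none was called in opposite directions. The share of all genes called alike in all 3 was not counted, so these repeats have no background beside them. The 16 were OASL, BST2, UBA7, GBP3, TRIM22, ISG15, IRF7, SAMD9L, HERC6, IFI44, OAS2, IFIT3, SAMD9, SP100, HERC5 and PARP14, and the 5 were GBP2, IFI35, OAS1, ISG20 and IFITM3. Over 38 alternative fits of the 3 comparisons, leaving aside the 2-fold minimum, 8 of the 16 (OASL, BST2, IRF7, HERC6, SAMD9L, SAMD9, SP100 and IFI44) and 2 of the 5 (GBP2 and IFI35) were called in every fit.

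BST2 rose by 0.87 ± 0.21, 1.46 ± 0.13 and 1.51 ± 0.20 in the Mediator, SOX10 and HDAC3 experiments, and OASL by 2.34 ± 0.29, 1.68 ± 0.21 and 1.72 ± 0.27. OAS1, whose product makes the same messenger that OASL cannot, fell by 0.44, 0.63 and 0.66. In the HDAC3 experiment OAS1 was at 6.41, 5.98 and 5.61 CPM in MED23KO, against 9.37, 9.57 and 9.50 CPM in Ctrl cells, without overlap. IFI35 fell by 0.74, 0.42 and 0.63. UBA7 (1.12) and ISG20 (-0.28) were also among the extremes of the SOX10 experiment, and IRF7 (0.74) and GBP2 (-0.53) among those of the HDAC3 experiment. RSAD2, IFI27, XAF1, EPSTI1, CXCL10 and CXCL11 had 49, 49, 15, 37, 6 and 4 counts in the whole SOX10 experiment and were below the low-count filter there, and XAF1, EPSTI1, CXCL11 and CXCL10 (32, 86, 12 and 8 counts) in the HDAC3 experiment.

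SOX10, the neural crest factor that keeps melanoma cells in a melanocytic state, was overexpressed in the experiment named for it. In MED23sg1 cells, SOX10OE lowered 25 of 43 tested members and raised 2, against 20.7% lower and 21.2% higher over all genes, with a median of -0.25. OASL was at 0.568, 0.723 and 0.572 CPM with SOX10OE, against 2.25, 2.84 and 1.80 CPM with EV, a fall of 1.87 ± 0.22. UBA7 was at 2.38, 1.86 and 2.83 CPM with SOX10OE, against 5.79, 5.17 and 5.59 CPM with EV, a fall of 1.23 ± 0.14. The libraries did not overlap for either gene.

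BST2 followed them, with 2.48, 2.27 and 2.25 CPM in MED23sg1 SOX10OE cells, against 4.84, 4.95 and 5.23 CPM in MED23sg1 EV cells, a fall of 1.10 ± 0.12. IFITM1 fell by 0.85 and ISG20 by 0.73. GBP2 (0.34) and PLSCR1 (0.21), a phospholipid scramblase that limits virus entry, rose. OAS1 was at 5.64, 5.96 and 6.04 CPM with SOX10OE, against 5.52, 6.87 and 6.33 CPM with EV, and the groups overlapped. Of 29 pathway genes tested 4 rose and 12 fell (all genes 21.2% and 20.7%).

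In GFPsg cells SOX10OE raised 8 members and lowered 11 (all genes 11.6% and 11.0%, median -0.06), by edgeR's quasi-likelihood test. DESeq2's Wald test called 10, and leaving out any single library left 11 to 14. IFI44 fell by 0.82 (10.8 CPM with SOX10OE and 19.1 CPM with EV), IRF9 by 0.90 and IFI35 by 0.33, while RTP4 rose by 0.71, GBP2 by 0.53 and PARP9 by 0.23. IFI44L was called lower at 0.246 CPM with SOX10OE and 0.615 CPM with EV, on 20 counts in SOX10OE. The IRF9 and RTP4 calls were lost by DESeq2's Wald test (adjusted p = 0.057 and 0.11) and without GFPsg EV replicate 2. OASL was at 0.263, 0.285 and 0.346 CPM with SOX10OE, against 0.709, 0.542 and 0.881 CPM with EV, on fewer than 30 counts in SOX10OE. BST2 was at 1.44, 1.67 and 1.45 CPM with SOX10OE, against 2.13, 1.67 and 1.65 CPM with EV, and did not pass. The difference between the SOX10 effects in MED23sg1 and GFPsg cells was tested as an interaction and passed for 19 members, 18 negative and 1 positive (all genes 7.04% and 7.64%, median -0.17). IFITM1 (-1.05), BST2 (-0.84) and UBA7 (-0.74) were the lowest and IFI44 (0.33) was the positive one. Without single libraries the IFITM1 interaction was lost in 6 fits (adjusted p up to 0.14) and that of UBA7 in 5 (up to 0.15, edgeR's quasi-likelihood test). Total SOX10 counts with SOX10OE stood at 174% of the EV level in MED23sg1 and 114% in GFPsg cells. Genotype and the size of the SOX10 rise therefore cannot be told apart in this interaction.

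HDAC3 is the deacetylase of the NCoR and SMRT corepressors. In HDAC3KO, 13 of 45 members were higher and 10 lower than in Ctrl cells, shares near the background (all genes 21.2% and 20.9%), with a median of 0.08. Upward went the IFIT genes IFIT3 (0.90 ± 0.06), IFIT2 (0.75) and IFIT1 (0.53), OAS1 (0.89 ± 0.08), IFI6 (0.83) and IFI35 (0.80). IFIT3 was at 34.6, 33.3 and 35.3 CPM in HDAC3KO, against 18.6, 18.7 and 18.1 CPM in Ctrl cells. Downward went BST2 (a fall of 1.28 ± 0.25, with 0.276, 0.584 and 0.313 CPM in HDAC3KO, against 0.826, 1.14 and 0.894 CPM in Ctrl cells), IRF7 (0.75), IFI44 (0.73), GBP1 (0.53) and GBP2 (0.49). OASL had 16 counts over the HDAC3KO libraries, 0.0975, 0.0325 and 0.125 CPM, against 0.376, 0.543 and 0.369 CPM in Ctrl cells.

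Removing HDAC3 from MED23 knockout cells lowered most of the members that changed. In dKO, 25 were lower and 4 higher than in MED23KO (all genes 18.9% and 19.1%, median -0.28). BST2 was at 0.773, 0.679 and 0.584 CPM in dKO, against 2.77, 3.02 and 2.36 CPM in MED23KO, a fall of 2.01 ± 0.22. OASL was at 0.369, 0.509 and 0.599 CPM in dKO, against 1.31, 1.64 and 1.30 CPM in MED23KO, a fall of 1.51 ± 0.28. Both dKO ranges were clear of MED23KO, and that of OASL overlapped Ctrl. IFITM1 fell by 1.13 and IFITM2 by 0.95.

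OAS1, IFI35, HERC5 and IFI6 were the 4 that rose in dKO over MED23KO, by 0.90, 0.55, 0.27 and 0.25. The HERC5 and IFI6 calls were lost without single libraries (adjusted p up to 0.13 and 0.14, edgeR's quasi-likelihood test). OAS1 was at 11.5, 10.7 and 11.6 CPM in dKO, between HDAC3KO (17.7, 15.6 and 19.4 CPM) and MED23KO and above Ctrl. IFI35 was at 19.3, 17.4 and 14.4 CPM in dKO, against 29.5, 32.7 and 30.9 CPM in HDAC3KO, 11.1, 12.6 and 11.0 CPM in MED23KO and 18.2, 17.5 and 17.8 CPM in Ctrl cells, so its dKO and Ctrl ranges overlapped. Against Ctrl, 6 members were higher and 11 lower in dKO (all genes 18.2% and 18.4%), GBP2 falling most, by 1.21 (9.43 and 21.8 CPM), followed by IFITM1 (0.85) and IFITM2 (0.80), and GBP3 rising by 0.61, HERC5 by 0.59 and SAMD9L by 0.38. Against HDAC3KO, 9 were higher and 19 lower (all genes 17.2% and 18.3%), with IFIT2 lower by 1.11, RTP4 by 0.96, IFI35 by 0.87 and IFIT3 by 0.85, and IRF7 and HERC5 each higher by 0.94. The RTP4 call was lost without dKO replicate 2 or 3 (adjusted p = 0.084 and 0.054, edgeR's quasi-likelihood test).

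**Figure D5:**
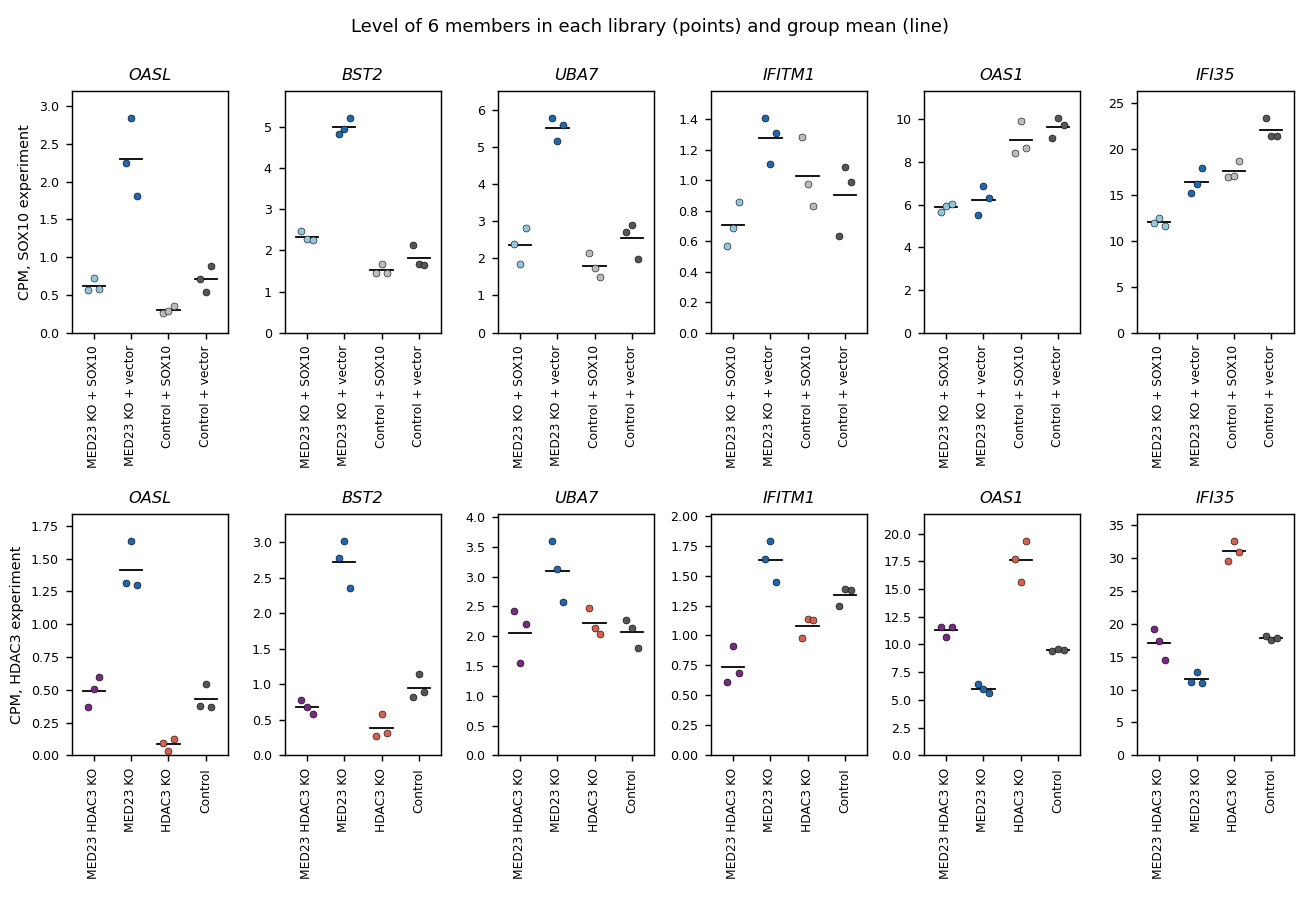
CPM of OASL, BST2, UBA7, IFITM1, OAS1 and IFI35 in each library of the SOX10 (top) and HDAC3 (bottom) experiments, 1 point per library and a line at the group mean. OASL and BST2 are highest in MED23 knockout cells without SOX10OE or HDAC3 loss, whereas OAS1 is lowest in MED23 knockout groups of the SOX10 experiment and highest in HDAC3KO.

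The interaction of MED23 and HDAC3 knockout, the difference between the MED23 effects with and without HDAC3, was negative for 17 members and positive for 1 (all genes 10.5% and 10.0%, median -0.24). IFIT2 (-1.20), IFIT3 (-1.16) and IFIT1 (-1.13) were the lowest. IFIT3 measured 19.5, 17.3 and 20.3 CPM in dKO, against 34.6, 33.3 and 35.3 CPM in HDAC3KO, 22.4, 22.2 and 23.8 CPM in MED23KO and 18.6, 18.7 and 18.1 CPM in Ctrl cells. IFIT3 was thus above Ctrl in each single knockout, while the dKO range overlapped that of Ctrl. HERC5 was the positive one, at 0.62.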

How the data were processed

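RNA was sequenced from 66 libraries, and the files hold whole-number counts per Ensembl gene that the authors deposited as 1 table for each of 3 experiments, unnormalized. The submitters' processing notes name bcl2fastq, HISAT2, HTSeq and build hg38. Their versions, the annotation, the strand setting and the treatment of multi-mapping reads are not named by the sources used here, so genes that overlap others or have near-identical copies are uncertain. The kit is stranded, per the labels' protocols. In the HDAC3 table the control columns are named GFP and were taken as the Ctrl samples because no other samples of that table remained, and MED23sg columns of the SOX10 table were taken as MED23sg1.

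Each table was fitted by itself with edgeR 4.0.16 (R 4.3.3, limma 3.58.1): genes passing a minimum count of 10 and a total of 15, TMM scaling, 1 mean per group, both guides weighted equally, quasi-likelihood tests and Benjamini-Hochberg adjustment over all genes tested, called at an adjusted p under 0.05. The SE of a log2 fold change was its size divided by the square root of the F statistic. Levels in CPM scale each count to a library of 1e6 after TMM. In the report no fold is printed for a member with under 30 counts in 1 of the groups compared, whereas the closing section gives those of CXCL10 on fewer counts. The fit was tested on simulated data. DESeq2 1.42.0 was an alternative, beside its size factors in edgeR, no low-count filter, only the groups compared, a 2-fold minimum, each guide alone, a replicate block, and each library left out. A fit with MED12 knockout libraries 1 and 3 only was added after seeing the data.

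The members and gene lists were chosen with earlier results of these data known. The members named were drawn from 20 members fixed by role, in each comparison the 3 highest and 3 lowest called log2 fold changes, members called against the majority, members below the filter, and pathway genes called; other members are named to complete a role. Values of some listed genes are not reported here. Of the 58721 identifiers, 58207 had a current symbol.

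Replicate numbers come from the titles. Same-numbered libraries correlated in their deviations from group means with a mean r of 0.01 in the Mediator, 0.04 in the SOX10 and 0.21 in the HDAC3 experiment. In the comparison of dKO with MED23KO every same-numbered pair exceeded 0.1, so these count as paired. The values printed for it come from the fit without a replicate block, and with the block the same 29 members were called in the same directions. MED23KO and HDAC3KO, which both enter the interaction of these knockouts, also exceeded 0.1 in every same-numbered pair (r of 0.15 to 0.44). Ctrl and HDAC3KO gave 0.09 to 0.57. The HDAC3KO and interaction values also come from the fit without a block. Every same-numbered pair of MED12sg1 DMSO and MED12sg2 vemurafenib libraries also exceeded 0.1 (r of 0.15 to 0.42). The MED12 guides in DMSO gave -0.10 to 0.33, and MED12sg2 between treatments -0.07 to 0.48. MED12 libraries were fitted as independent, although replicate 2 was highest for nearly all members in each MED12 group. The p-values of MED12 comparisons leave this shared effect out.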

Additional observations from a re-analysis of the deposited data

Results flagged for a closer look

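The effect of vemurafenib differed between MED12 knockout and control cells for 39 members by the interaction test of edgeR. IFI44L (-3.53), RSAD2 (-2.69) and CXCL10 (-2.52) had the lowest interactions on the log2 scale and GBP2 (1.03), BST2 (0.69) and HERC5 (0.43) the highest among those positive. CXCL10 rests on 1 library: control vemurafenib libraries had 0, 0 and 22 counts, against 5, 2 and 3 in control DMSO libraries, and without the library of 22 counts the value was 3.45 with an adjusted p of 0.29 by edgeR's quasi-likelihood test.

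For MED19 knockout the vemurafenib effect differed for 12 members, with GBP2 (1.45), BST2 (1.11) and ISG20 (0.25) positive and OASL (-1.92), IFI44L (-1.50) and IFIT3 (-0.88) negative. For MED23 knockout it differed for 10 members, with GBP2 (1.60), MX1 (0.67) and GBP1 (0.33) positive and IFI44L (-1.75), OASL (-1.25) and IFIT3 (-1.13) negative. These comparisons share the control libraries with that of MED12, and the ISG20, MX1 and GBP1 calls were each lost without at least 1 single library.

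The effect of SOX10 overexpression differed between MED23sg1 and GFPsg cells for 19 members, among them IFITM1 (-1.05), BST2 (-0.84), UBA7 (-0.74) and IFI44 (0.33). SOX10 itself rose more in MED23sg1 than in GFPsg cells, which cannot be told apart from genotype here. The effect of MED23 knockout differed with and without HDAC3 for 18 members, among them IFIT2 (-1.20), IFIT3 (-1.16), IFIT1 (-1.13) and HERC5 (0.62).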

How the results depend on the processing

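Depth limits the low members: CXCL10, CXCL11 and EPSTI1 in control cells, and 6 members in the SOX10 and 4 in the HDAC3 experiment. Requiring at least 2-fold beside the call left 6 members for MED19 and 2 for MED23 knockout against control in DMSO, 3 between those knockouts, and with vemurafenib 19 in control, 3 in MED12, 11 in MED19 and 14 in MED23 knockout cells. It left 5 (MED19) and 3 (MED23) against control in vemurafenib, interactions with vemurafenib of 19, 4 and 4 (MED12, MED19, MED23), and 0 between MED19 guides. In the SOX10 experiment it left 3 for MED23 knockout, 2 and 3 for SOX10OE in GFPsg and MED23sg1 cells and 1 interaction. In the HDAC3 experiment it left 2 for HDAC3KO, 2 for MED23KO and 1 for dKO against Ctrl, 3 for dKO against MED23KO, 2 for dKO against HDAC3KO and 3 interactions.

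Without a low-count filter the counts were 39 for MED23 knockout against control in vemurafenib, 30 and 27 for the MED19 and MED23 interactions, and 6 and 25 between MED12 and MED19 guides. Fitting only the groups compared gave 37, 29, 22 and, between MED19 guides, 23. Guide 2 alone gave 9 between MED19 and MED23 knockouts and 6 for the MED19 interaction. DESeq2's Wald test gave 5 between MED19 guides (3 in the fit reported: SAMD9L, UBA7 and SAMD9) and 10 for SOX10OE in GFPsg cells. The replicate block gave 7 between MED19 guides and moved no other count by over 1.5 times. The cause was not tested.

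For vemurafenib in MED12 knockout cells the majority among 31 calls (14 higher, 17 lower) turned with DESeq2 size factors (31 calls, 16 higher) and with MED12 libraries 1 and 3 only (36 calls, 19 higher), and leaving out single libraries gave 31 to 36 calls, the most (21 higher) without MED12sg2 DMSO replicate 2. MED12 libraries 1 and 3 only gave 1 call between MED12 guides. Leaving out single libraries gave 0 to 3 calls between MED12 guides (3 without MED12sg2 DMSO replicate 2), 0 to 3 between MED19 guides (0 without MED19sg2 DMSO replicate 2), and CXCL10 values of -5.94 to 1.64 for MED19 knockout in vemurafenib and -3.13 to 3.45 for the MED12 interaction, each highest without GFPsg vemurafenib replicate 3. For SOX10OE in GFPsg cells they gave 11 to 14 calls, against 19 with all libraries.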
